A study of Homo sapiens with 6 samples.

Results

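The molecular chaperones of the deposited gene table were examined in HEY cells, an established ovarian cancer line, with and without depletion of PQBP1, a splicing factor. Their rows were picked by gene symbol. They were the names that start with HSP90, the numbered HSPA, HSPB, DNAJA, DNAJB, DNAJC and CCT genes, and HSPD1, HSPE1, HSPH1 and TCP1. Names with a hyphen were left out, as were pseudogene names, those that end in P or in P plus digits (TCP1 aside). A pseudogene under another kind of name would have been kept. The rule took 79 of 32679 rows. They were 3 HSP90 genes, 17 rows of the HSP70 and HSP110 family, 6 small heat shock proteins, 4 type A, 11 type B and 27 type C J proteins, 9 genes of the cytosolic chaperonin and 2 of the mitochondrial chaperonin. A pair of these rows carried the name HSPA14, and GENCODE release 44 names the one with the shorter genomic span MSANTD7, which overlaps HSPA14, so that reads of either may have been split between them.

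In all, 3 samples carried a control hairpin (shNC) and 3 a hairpin against PQBP1 (shPQBP1), all in stable lines made by lentivirus and puromycin selection and all collected on day 3. By the labels the shPQBP1 samples received doxycycline at 1 µg/ml and the shNC samples received none, so the hairpin and doxycycline cannot be told apart. Poly(A) RNA was sequenced in pairs, and each gene's level was given as FPKM, fragments scaled to the length of the transcript and to the mapped fragments of the sample, which allows levels of different genes to be compared per length. The labels call the samples biological triplicates, and all p-values measure the spread between these samples.

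Chaperones bind unfolded or partly folded proteins and keep them from aggregating. HSP70 works in cycles of ATP hydrolysis that are started by J proteins, which carry the substrates to it, and it passes some clients on to HSP90 or to the barrel-shaped chaperonins. Small heat shock proteins hold unfolded clients without ATP. Heat and other insults raise many of these genes through the transcription factor HSF1, whereas the chaperones of the endoplasmic reticulum (ER) answer to the unfolded protein response.

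PQBP1 itself, the gene the hairpin targets, measured 7.18, 6.67 and 6.93 FPKM in the shNC samples and 1.68, 1.72 and 1.44 FPKM in the shPQBP1 samples (log2 fold change -2.04, SE 0.10, adjusted p = 0.00154). Sequencing depth is unknown, since FPKM gives no read number and its low values showed no steps of whole reads. The chaperone rows together took 1.34% to 1.56% of the summed FPKM of a sample. That sum was 318484, 294970 and 304196 in shNC and 282734, 287423 and 278286 in shPQBP1, so it was lower in every shPQBP1 sample. The FPKM values given below are as deposited and were not rescaled to it. The sample shNC 1 stood somewhat apart from the others, with correlations of 0.926 to 0.955 with them over the genes tested. Of the epithelial and ovarian markers, KRT7, KRT8 and KRT18 lay between 52.8 and 94.6 FPKM and PAX8 between 12.3 and 24.1 FPKM, whereas EPCAM reached 1.13, WT1 0.71 and MUC16 0.01 FPKM at most. The lymphocyte marker PTPRC was listed at 0 in every sample, and ALB, a liver gene, and PECAM1, an endothelial gene, stayed at or under 0.25 FPKM. CDH5, another endothelial marker, lay between 2.11 and 3.64 FPKM. CD3E, a further lymphocyte marker, was not found among the deposited gene names. In bulk RNA, fewer cells of a type and less RNA per cell cannot be told apart.

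HSF1 and the factors of the unfolded protein response are known to bind short elements in the promoters of some chaperone genes, and these were searched for. Windows from 250 bases before to 50 bases after the start of a gene (RefSeq, GRCh38.p14) were matched to 69 of the 79 rows. A heat shock element was searched on both strands as 3 adjoining units of NGAAN in alternating orientation, so that the middle unit or the outer units read NTTCN. It was found in 7 of the 69 windows (10.1%) and in 172 of 35097 windows of all genes (0.490%). The elements below are shown because they lie before the start of HSP90 genes, HSP70 genes and HSPD1, whose levels are described next. HSPA6 among them is a strictly heat-inducible HSP70. Capitals mark the part that runs from the first to the last fixed base of the match, and each line reads 5′ to 3′ along the gene.
HSP90AA1, chr14:102087111-102087140, - strand: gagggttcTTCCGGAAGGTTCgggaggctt
HSP90AB1, chr6:44247770-44247799, + strand: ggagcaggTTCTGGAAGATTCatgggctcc
HSP90AB1, chr6:44247823-44247852, + strand: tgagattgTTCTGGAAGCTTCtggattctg
HSPA6, chr1:161524458-161524487, + strand: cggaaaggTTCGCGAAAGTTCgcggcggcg
HSPA8, chr11:123062345-123062374, - strand: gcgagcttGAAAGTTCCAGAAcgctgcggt
HSPA8, chr11:123062170-123062199, - strand: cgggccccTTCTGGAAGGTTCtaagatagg
HSPD1, chr2:197500061-197500090, - strand: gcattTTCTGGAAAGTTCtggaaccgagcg
The other matches were in the J proteins DNAJA1, after its start, and DNAJB6, and HSPD1 held a further match that overlaps the one shown. An ER stress element, CCAAT and CCACG with 9 bases of any kind between them, was searched in the same way. It was found in 2 of the 69 windows (2.90%) and in 27 windows of all genes (0.0769%). These belong to HSPA5 and HSP90B1, the main HSP70 and HSP90 of the ER. Capitals mark the whole element.
HSP90B1, chr12:103930211-103930240, + strand: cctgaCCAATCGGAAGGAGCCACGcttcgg
HSP90B1, chr12:103930316-103930345, + strand: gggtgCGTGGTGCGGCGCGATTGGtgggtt
HSPA5, chr9:125241385-125241414, - strand: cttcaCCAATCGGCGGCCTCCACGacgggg
A match describes letters only, and a window without one says nothing about the factor.

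No chaperone gene passed the test between the groups once p-values were adjusted. Of the 79 rows, 60 had a mean of at least 1 FPKM over the 6 samples and were tested with all such genes. None of the 60 passed an adjusted p under 0.05 (limma, Benjamini-Hochberg), where 2.91% of the 11413 genes tested did. At an unadjusted p under 0.05 there were 16 members (26.7%), against 23.6% of all genes, so the share was near the background. Of these, 4 lay higher in shPQBP1 and 12 lower (6.67% and 20%), where 11.9% of all genes lay higher and 11.7% lower. No member had a fold change over 2 together with an unadjusted p under 0.05, against 1.52% of all genes. The 3 shPQBP1 values lay wholly above the 3 shNC values in 5 members and wholly below in 14, together 31.7% of the members against 34.4% of all genes.

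Most differences were small. The absolute log2 fold change, on the scale of log2(FPKM + 0.1), was under 0.2 in 32 of the 60 members and under 0.5 in 53, with a median of 0.189 against 0.214 over all genes. The signed median was -0.03 for the members and 0.02 for all genes. The count of 16 moved to 9 without shNC 3, to 10 without shPQBP1 2 and to 8 without shPQBP1 3, and the share of all genes at that threshold moved with it, to 19.6%, 18.6% and 15.8%. Without shNC 1, 2 members passed an adjusted p under 0.05, DNAJB5 and DNAJC7, as did 464 of all 11413 genes.

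**Figure D1:**
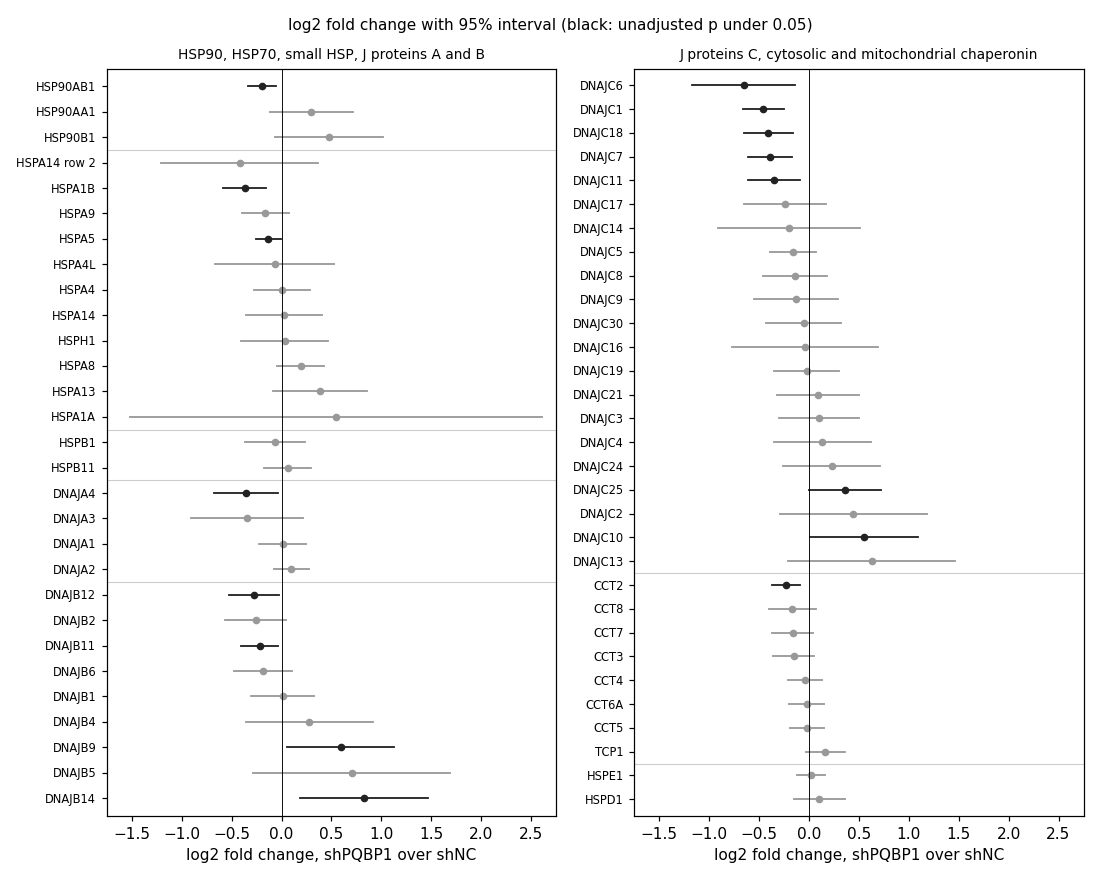
log2 fold change of each of the 60 tested chaperone genes, shPQBP1 over shNC, with its 95% interval from limma (horizontal axis, log2 scale), ordered within each family. Black points have an unadjusted p under 0.05, 4 to the right of 0 and 12 to the left, and none passed the adjustment over all genes.

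HSP90 holds late folding clients such as kinases and steroid receptors. Its constitutive cytosolic form, HSP90AB1 (chr6:44246166-44253888), was the most abundant chaperone of the table, at 1264, 1162 and 1158 FPKM in the shNC samples and 1048, 1050.0 and 1027 FPKM in the shPQBP1 samples. The 3 shPQBP1 values lay below all shNC values, with a mean 12.8% lower (log2 fold change -0.20, SE 0.06, adjusted p = 0.12), and the alternatives gave adjusted p-values of 0.0580 to 0.766. Its stress-inducible partner HSP90AA1 had 310.5, 493 and 411 FPKM in the shNC samples and 535, 457 and 477 FPKM in the shPQBP1 samples (log2 fold change 0.30, SE 0.17, adjusted p = 0.327). The ER form HSP90B1, also known as GRP94, had 73.5, 136 and 104 FPKM in the shNC samples and 149, 127 and 148 FPKM in the shPQBP1 samples (log2 fold change 0.48, SE 0.22, adjusted p = 0.248). For HSP90AA1 and HSP90B1 the groups overlapped, and in both genes shNC 1 was the lowest of the 6 samples. The ratio of HSP90AB1 to HSP90AA1 in a sample was 4.07, 2.36 and 2.82 in shNC and 1.96, 2.30 and 2.15 in shPQBP1. These ratios did not overlap, and the exact permutation test gave p = 0.1, the smallest it can give for 3 against 3 samples. The highest ratio was that of shNC 1.

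**Figure D2:**
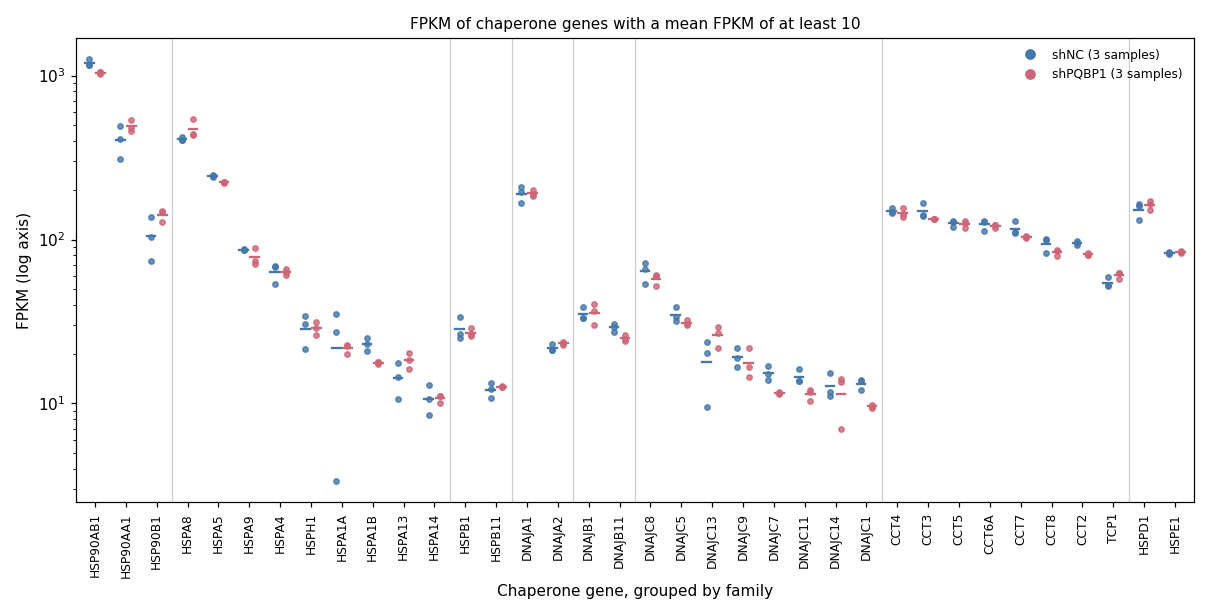
FPKM (log axis) of the 36 chaperone genes with a mean of at least 10 FPKM, with 1 point per sample (blue, shNC, and red, shPQBP1) and a bar at each group's mean, grouped by family from HSP90 on the left to the mitochondrial chaperonin on the right. HSP90AB1 stands at the top with 1027 to 1264 FPKM, and the point at 3.36 FPKM is HSPA1A in shNC 3.

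Among the HSP70 genes the constitutive cytosolic HSPA8 was the most abundant, at 407, 421 and 404 FPKM in the shNC samples and 435, 438 and 542 FPKM in the shPQBP1 samples. All shPQBP1 values lay above the shNC values, shPQBP1 3 by the widest margin, and the difference did not pass the test (log2 fold change 0.19, SE 0.10, adjusted p = 0.279). HSPA5, known as BiP, the HSP70 of the ER, had 248, 242 and 244 FPKM in the shNC samples and 225, 222 and 224 FPKM in the shPQBP1 samples. The SD was 3.11 FPKM in shNC and 1.24 FPKM in shPQBP1, and the shPQBP1 mean was 8.77% lower (log2 fold change -0.13, SE 0.05, adjusted p = 0.201). HSPA9, the mitochondrial HSP70 called mortalin, had 85.9, 87.4 and 86.7 FPKM in the shNC samples and 88.7, 73.7 and 70.93 FPKM in the shPQBP1 samples, with shPQBP1 1 above every shNC sample (log2 fold change -0.16, SE 0.10, adjusted p = 0.339). HSPH1, an HSP110 protein that exchanges nucleotide on HSP70, had 21.5, 34.1 and 30.36 FPKM in the shNC samples and 31.5, 26.2 and 28.7 FPKM in the shPQBP1 samples, shNC 1 being the lowest (log2 fold change 0.03, SE 0.18, adjusted p = 0.929).

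HSPA1A and HSPA1B, the neighbouring stress-inducible HSP70 genes on chromosome 6, code for nearly the same sequence. Of the 50-base words of the HSPA1A transcript, 75.1% were also found in HSPA1B, so reads may have been split between the genes in ways that differ by sample. HSPA1A had 34.95, 27.4 and 3.36 FPKM in the shNC samples and 19.9, 22.6 and 22.7 FPKM in the shPQBP1 samples. The value of shNC 3 was far below the other 5, and the log2 fold change of 0.54 (95% interval -1.52 to 2.61) turned to -0.51 without that sample. HSPA1B had 24.9, 23.1 and 20.8 FPKM in the shNC samples and 17.9, 17.3 and 17.9 FPKM in the shPQBP1 samples, lower in each shPQBP1 sample (log2 fold change -0.37, SE 0.09, adjusted p = 0.0828). The sum of both genes was 59.9, 50.5 and 24.2 FPKM in shNC and 37.9, 39.9 and 40.5 FPKM in shPQBP1, so that the shNC samples lay on both sides of the shPQBP1 samples (exact permutation test, p = 0.7). Over the family, 11 of the 17 rows were tested, of which 2 (HSPA1B and HSPA5) lay lower at an unadjusted p under 0.05 and none higher (18.2%, beside 23.6% of all genes). In the other tested rows of the family, HSPA4, HSPA4L, HSPA13 and both rows named HSPA14, the groups overlapped, with log2 fold changes of -0.42 to 0.38. The heat-inducible HSPA6 did not exceed 0.35 FPKM in any sample.

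Of the 6 small heat shock proteins only HSPB1 and HSPB11 were abundant enough to test. HSPB1, or HSP27, a widely expressed member, had 33.6, 26.7 and 25.1 FPKM in the shNC samples and 26.4, 28.7 and 25.7 FPKM in the shPQBP1 samples (log2 fold change -0.07, SE 0.12, adjusted p = 0.75). HSPB11, which GENCODE release 44 names IFT25 and which is a subunit of the ciliary transport complex, had 10.82, 13.3 and 12.3 FPKM in the shNC samples and 12.5, 12.6 and 12.8 FPKM in the shPQBP1 samples (log2 fold change 0.06, SE 0.10, adjusted p = 0.708). In both genes the groups overlapped, with shNC 1 the highest in HSPB1 and the lowest in HSPB11.

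Many type A and type B J proteins are the classical partners of cytosolic HSP70. DNAJA1 was by far the most abundant J protein, at 167, 209 and 195 FPKM in the shNC samples and 201, 189 and 184 FPKM in the shPQBP1 samples, and the groups overlapped (log2 fold change 0.01, SE 0.10, adjusted p = 0.949, 95% interval -0.22 to 0.25). DNAJA2 averaged 21.8 ± 1.15 FPKM in shNC and 23.3 ± 0.631 FPKM in shPQBP1 (SD, n = 3 each). DNAJB1, the heat-inducible J protein also called HSP40, had 38.8, 33.3 and 33.3 FPKM in the shNC samples and 36.4, 29.96 and 40.17 FPKM in the shPQBP1 samples (log2 fold change 0.01, SE 0.13, adjusted p = 0.969, 95% interval -0.31 to 0.32). Neither DNAJA1 nor DNAJB1 showed a direction, and both signs appeared when single samples were left out. Of the 4 type A genes, only DNAJA4 had an unadjusted p under 0.05 (25%, beside 23.6% of all genes). It lay lower, with 2.14, 2.72 and 2.79 FPKM in the shNC samples and 1.95, 1.87 and 2.05 FPKM in the shPQBP1 samples (log2 fold change -0.36, SE 0.13, adjusted p = 0.181). DNAJA3, a mitochondrial J protein, had 11.1, 9.75 and 6.38 FPKM in the shNC samples and 5.95, 6.67 and 8.4 FPKM in the shPQBP1 samples (log2 fold change -0.34, SE 0.23, adjusted p = 0.385), with shPQBP1 3 above shNC 3.

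Among the 9 tested type B genes, 2 lay higher (DNAJB9 and DNAJB14) and 2 lower (DNAJB11 and DNAJB12) at an unadjusted p under 0.05, all of them J proteins of the ER. These 4 of 9 (44.4%) stand beside 23.6% of all genes. DNAJB5 was named after its values were seen. It had 2.66, 0.87 and 0.92 FPKM in the shNC samples and 2.07, 2.17 and 2.28 FPKM in the shPQBP1 samples, with shNC 1 apart from both other shNC samples. Its log2 fold change was 0.70 (SE 0.41, adjusted p = 0.328). Over the alternatives the adjusted p lay between 0.016, without shNC 1, and 0.532. In DNAJB2, DNAJB4 and DNAJB6 the groups overlapped, with log2 fold changes of -0.26 to 0.28.

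Type C J proteins share little but the J domain and serve particular HSP70 tasks. Of 21 tested, 5 lay lower and 2 higher at an unadjusted p under 0.05 (33.3%, beside 23.6% of all genes). DNAJC1 (chr10:21756548-22003769), an ER membrane J protein that binds BiP, came nearest to the threshold of all members. It had 13.8, 13.9 and 12.03 FPKM in the shNC samples and 9.56, 9.84 and 9.37 FPKM in the shPQBP1 samples, a mean 27.5% lower (log2 fold change -0.46, SE 0.09, adjusted p = 0.052). The groups were well apart, and the adjusted p lay between 0.0440 and 0.236 over the alternatives. DNAJC7, a cytosolic protein that binds both HSP70 and HSP90, had 13.9, 16.9 and 15.04 FPKM in the shNC samples and 11.4, 11.7 and 11.8 FPKM in the shPQBP1 samples (log2 fold change -0.39, SE 0.09, adjusted p = 0.0815). No shPQBP1 value reached the lowest shNC value. Over the alternatives the adjusted p lay between 0.0444, without shNC 1, and 0.269.

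The remaining type C genes at an unadjusted p under 0.05 were named after their values were seen. DNAJC6, or auxilin, which strips clathrin from vesicles together with HSPA8, had 0.98, 1.48 and 1.53 FPKM in the shNC samples and 0.84, 0.70 and 0.85 FPKM in the shPQBP1 samples (log2 fold change -0.65, SE 0.21, adjusted p = 0.145), the most negative value among the 60. The mean of DNAJC6 was 1.33 FPKM in shNC and 0.797 FPKM in shPQBP1, so it passed the floor only through the shNC samples. HSPB8 and DNAJC22, given below, were under the floor and had more negative values without it. DNAJC18 had 2.93, 2.8 and 2.76 FPKM in the shNC samples and 2.2, 2.19 and 1.94 FPKM in the shPQBP1 samples (log2 fold change -0.41, SE 0.10, adjusted p = 0.0877). DNAJC11, a protein of the mitochondrial membranes, had 16.3, 13.7 and 13.7 FPKM in the shNC samples and 11.8, 12.1 and 10.39 FPKM in the shPQBP1 samples (log2 fold change -0.35, SE 0.11, adjusted p = 0.133). In DNAJC6, DNAJC18 and DNAJC11 the shPQBP1 samples lay below the shNC samples. DNAJC25 had 5.39, 7.2 and 7.1 FPKM in the shNC samples and 9.54, 7.62 and 8.13 FPKM in the shPQBP1 samples, all shPQBP1 values being above the shNC values (log2 fold change 0.36, SE 0.15, adjusted p = 0.211). In the other 14 tested type C genes the groups overlapped, and their log2 fold changes ran from -0.24 in DNAJC17, a J protein linked to splicing, to 0.63 in DNAJC13, which acts on endosomes. The latter had 9.51, 23.8 and 20.32 FPKM in the shNC samples and 29.2, 21.9 and 26.9 FPKM in the shPQBP1 samples, with shNC 1 the lowest.

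The J proteins that serve RNA, chromatin and ribosomes were read as a group, since PQBP1 is a splicing factor. None of the 5 tested (DNAJC8, DNAJC17, DNAJC9, DNAJC2 and DNAJC21) had an unadjusted p under 0.05, beside 23.6% of all genes. The 5 genes are too few to set against that share. DNAJC8, which associates with the spliceosome and was the most abundant type C gene, had 72.3, 53.4 and 65.9 FPKM in the shNC samples and 60.18, 51.9 and 60.79 FPKM in the shPQBP1 samples (log2 fold change -0.14, SE 0.13, adjusted p = 0.529, 95% interval -0.46 to 0.18). The groups overlapped. DNAJC5, the cysteine string protein of secretory vesicles, was next in abundance, with 38.7, 31.6 and 33.6 FPKM in the shNC samples and 29.9, 32.2 and 30.75 FPKM in the shPQBP1 samples, shNC 1 being the highest.

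The ER members had values in both directions. In 7 of 10 (70.0%) the groups did not overlap, where 34.4% of all genes had such groups, and the shPQBP1 samples lay lower in 4 and higher in 3. The 10 were HSP90B1, HSPA5, HSPA13, DNAJB9, DNAJB11, DNAJB12, DNAJB14, DNAJC1, DNAJC3 and DNAJC10, a list made with earlier results of these data known. This list is a selection and does not hold DNAJC14 and DNAJC16, whose groups overlapped, or DNAJC18, whose groups did not. Lower were HSPA5 and its J proteins DNAJC1 and DNAJB11, and DNAJB12, an ER membrane J protein. DNAJB11, a secreted cofactor of BiP, had 27.4, 29.4 and 30.43 FPKM in the shNC samples and 26.1, 24.7 and 24.1 FPKM in the shPQBP1 samples (log2 fold change -0.22, SE 0.08, adjusted p = 0.164). DNAJB12 had 10.31, 8.79 and 9.28 FPKM in the shNC samples and 7.17, 7.76 and 8.45 FPKM in the shPQBP1 samples (log2 fold change -0.28, SE 0.10, adjusted p = 0.177), shNC 1 being the highest. DNAJB12 and DNAJC10 were named after their values were seen. At an unadjusted p under 0.05 the 10 held 3 higher and 4 lower (70.0%, beside 23.6% of all genes). With GC content and transcript length corrected there were 2 higher and 2 lower of the 10, beside 27.6% of all genes in either direction.

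Higher were DNAJB14, a close relative of DNAJB12 in the ER membrane, DNAJB9, a BiP cofactor induced by the unfolded protein response, and DNAJC10, a disulfide reductase that helps to clear misfolded proteins. DNAJB14 had 1.02, 2.08 and 1.32 FPKM in the shNC samples and 2.7, 2.18 and 2.93 FPKM in the shPQBP1 samples (log2 fold change 0.83, SE 0.26, adjusted p = 0.139). DNAJB9 had 1.2, 1.98 and 1.78 FPKM in the shNC samples and 2.9, 2.05 and 2.59 FPKM in the shPQBP1 samples (log2 fold change 0.59, SE 0.22, adjusted p = 0.182). DNAJC10 had 1.77, 3.18 and 2.82 FPKM in the shNC samples and 3.91, 3.34 and 3.99 FPKM in the shPQBP1 samples (log2 fold change 0.55, SE 0.22, adjusted p = 0.206). In all of these shNC 1 was the lowest sample, and leaving out single samples gave log2 fold changes of 0.61 to 1.09, 0.39 to 0.73 and 0.31 to 0.71. Their transcripts are poor in GC, with 32.5%, 37.3% and 37.5% G and C bases, and with each sample corrected for base composition and length the log2 fold changes were 0.50, 0.37 and 0.12. DNAJC3, a further ER cofactor of BiP, had 7.33, 11.5 and 10.05 FPKM in the shNC samples and 10.18, 9.84 and 10.42 FPKM in the shPQBP1 samples (log2 fold change 0.10, SE 0.17, adjusted p = 0.722).

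HSPA5 and HSP90B1, the ER chaperones whose promoters hold the element shown above, had log2 fold changes of opposite sign. Their ratio was 3.38, 1.78 and 2.35 in the shNC samples and 1.504, 1.74 and 1.52 in the shPQBP1 samples, without overlap (exact permutation test, p = 0.1). Again the highest ratio was that of shNC 1. Of 13 chaperones known as targets of the unfolded protein response, at an unadjusted p under 0.05 there were 2 above the shNC level (DNAJB9 and DNAJC10) and 2 below it (HSPA5 and DNAJB11; 30.8% in all, beside 23.6% of all genes).

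The cytosolic chaperonin is a double ring of 8 kinds of subunit that folds actin and tubulin. TCP1 and the genes CCT2 to CCT8 with CCT6A lay between 51.9 and 167 FPKM, and CCT6B, the testis form of CCT6A, did not exceed 0.14 FPKM. CCT2 had 97.6, 95.2 and 93.2 FPKM in the shNC samples and 80.96, 80.56 and 82.2 FPKM in the shPQBP1 samples, a mean 14.8% lower with no overlap (log2 fold change -0.23, SE 0.06, adjusted p = 0.094). It was the only subunit of the 8 tested at an unadjusted p under 0.05 (12.5%, beside 23.6% of all genes). CCT3 had 167, 139.8 and 141 FPKM in the shNC samples and 134, 134 and 134 FPKM in the shPQBP1 samples (log2 fold change -0.15, SE 0.09, adjusted p = 0.312), and its shNC mean was raised by shNC 1. CCT4, the subunit with the highest shPQBP1 mean, had 147, 145 and 156 FPKM in the shNC samples and 155, 143 and 138 FPKM in the shPQBP1 samples (log2 fold change -0.04, SE 0.07, adjusted p = 0.75), with overlap. TCP1, the gene that lay lowest, had 52.6, 58.8 and 51.9 FPKM in the shNC samples and 57.4, 62.5 and 62.7 FPKM in the shPQBP1 samples and was the only subunit with a positive value (log2 fold change 0.16, SE 0.08, adjusted p = 0.272).

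Taking the 8 ring genes as a whole, their mean was 115, 114 and 112 FPKM in shNC and 108, 106 and 106 FPKM in shPQBP1. The values did not overlap, and the exact permutation test gave p = 0.1. The summed FPKM of a sample was also lower in every shPQBP1 sample, and the ring mean was not scaled to it. In 7 of the 8 genes the log2 fold change was negative, between -0.23 and -0.02, and their median with TCP1 was -0.10. The shPQBP1 values lay wholly below the shNC values in 3 of them, CCT2, CCT3 and CCT7 (37.5%, beside 34.4% of all genes).

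**Figure D3:**
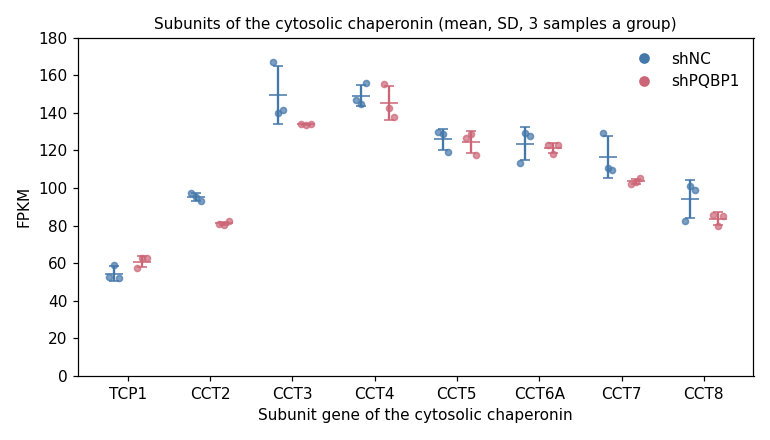
FPKM of the 8 subunit genes of the cytosolic chaperonin in each sample (blue, shNC, and red, shPQBP1), with the mean (horizontal bar) and SD (n = 3 per group). CCT2 is the clearest separation, 93.2 to 97.6 against 80.6 to 82.2 FPKM, and TCP1 is the only gene with a higher shPQBP1 mean.

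The mitochondrial chaperonin, made of HSPD1 (HSP60) and its lid HSPE1 (HSP10), showed no difference that passed the test. HSPE1 had 82.4, 83.4 and 81.5 FPKM in the shNC samples and 84.3, 82.3 and 84.8 FPKM in the shPQBP1 samples (log2 fold change 0.02, SE 0.06, adjusted p = 0.813, 95% interval -0.12 to 0.16). HSPD1 had 132, 161 and 164 FPKM in the shNC samples and 172, 151 and 165 FPKM in the shPQBP1 samples (log2 fold change 0.10, SE 0.11, adjusted p = 0.56). In both genes the groups overlapped, and the HSPE1 values lay within a narrow band. Over 20% of the 50-base words of each transcript were also found in other genes. With HSPA9, DNAJA3, DNAJC19 and DNAJC30 there were 6 tested mitochondrial members on a list that does not hold DNAJC11. None of the 6 had an unadjusted p under 0.05, beside 23.6% of all genes, and they are too few to set against that share. The ratio of HSPD1 to HSPE1 was 1.60, 1.93 and 2.01 in shNC and 2.05, 1.84 and 1.95 in shPQBP1 (exact permutation test, p = 0.6).

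Differences among the members went with the base composition of their transcripts. Spearman's rho between log2 fold change and the GC content of the transcript was -0.544 over the 60 members and -0.459 over 11385 tested genes. This is a description across genes, which share the same 6 samples and are not independent replicates. The members were poorer in GC than all tested genes, with medians of 43.5% and 47.5%. The 4 members higher at an unadjusted p under 0.05 had a median of 37.4% and the 12 lower ones 46.7%. The sample shNC 1 was the lowest or the highest of the 6 in 43 of the 60 members. It was the lowest in 21, with a median GC content of 39.9%, and the highest in 22, with a median of 51.6%.

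With each sample corrected for GC content and transcript length, rho over the members was -0.0821. The median log2 fold change of the members was then -0.10, beside 0.03 for all genes. In that fit 5 of the 60 members passed an adjusted p under 0.05, a share near the 8.24% of all genes. Each of the 5 had a negative value, and the genes called over the whole table were not split by direction. The 5 were CCT2 (-0.29), CCT8 (-0.27), DNAJC18 (-0.42), DNAJC6 (-0.75) and HSPA4L (-0.40), and DNAJC6 passed the floor only through the shNC samples. CCT8 and HSPA4L were named after their values were seen. CCT8, another subunit of the cytosolic chaperonin, had 82.5, 101 and 98.8 FPKM in the shNC samples and 85.8, 79.6 and 85.3 FPKM in the shPQBP1 samples as deposited. HSPA4L, an HSP110 protein, had 3.48, 6.69 and 5.47 FPKM in the shNC samples and 5.49, 4.22 and 4.74 FPKM in the shPQBP1 samples. In both, shNC 1 lay well below the other shNC samples. Among the 12 members lower at an unadjusted p under 0.05, the correction moved the log2 fold change by over 1.5 times towards 0 in HSPA1B (-0.18), DNAJB12 (-0.17) and DNAJC11 (-0.23). The part that base composition plays in the differences was not tested.

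**Figure D4:**
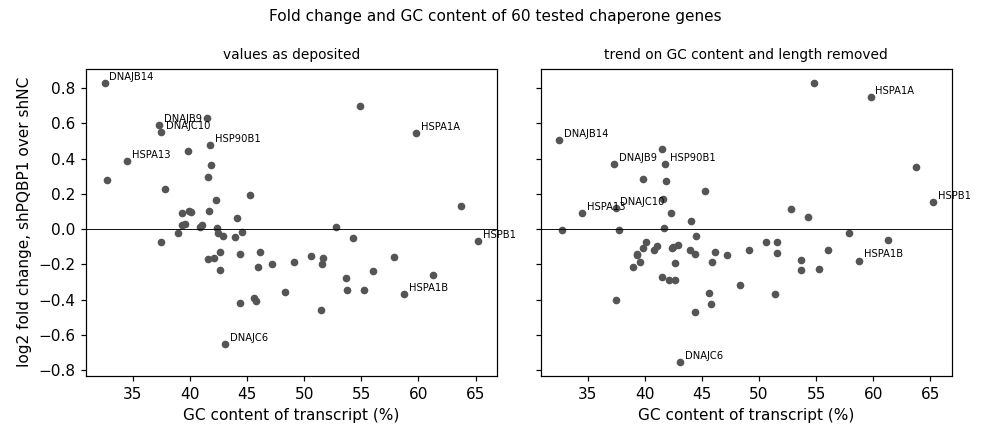
log2 fold change (vertical axis, shPQBP1 over shNC) against the GC content of the transcript in percent (horizontal axis) for the 60 tested chaperone genes, 1 point per gene. On the left, with values as deposited, the points run downwards (Spearman rho -0.544), and on the right, with each sample corrected for GC content and length, they do not (rho -0.0821).

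**Figure D5:**
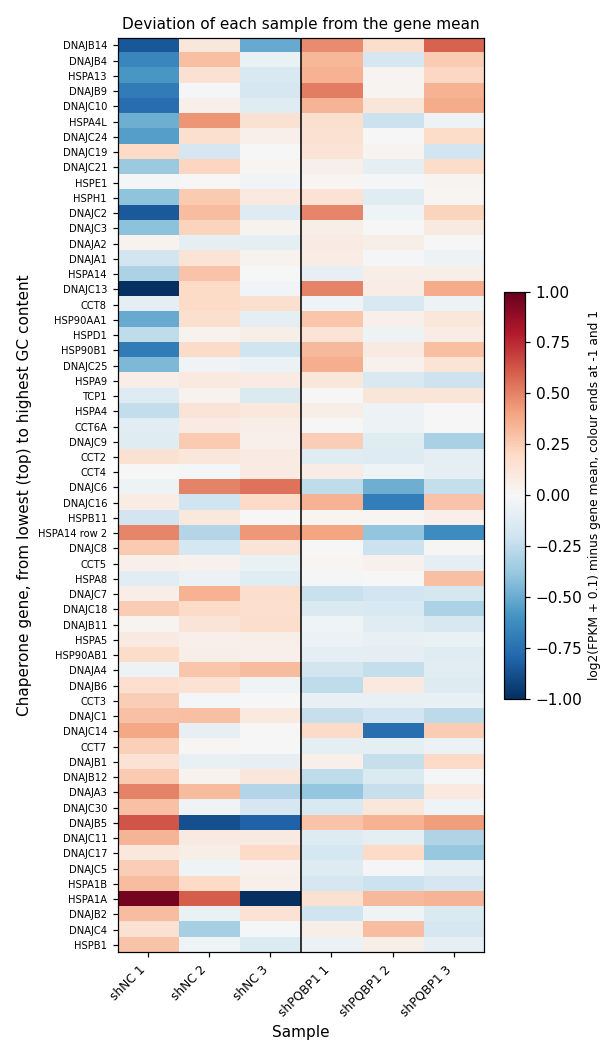
Deviation of each sample's log2(FPKM + 0.1) from the gene's mean over the 6 samples (colour, blue below and red above, ends at -1 and 1) for the 60 tested chaperone genes, ordered from the lowest GC content at the top. The column of shNC 1 is mostly blue at the top and red at the bottom, and this sample is the lowest in 21 genes and the highest in 22.

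Genes that act with the chaperones were read from lists made with earlier results known. Of 56 such genes in the table, 53 were tested, and at an unadjusted p under 0.05 there were 4 above and 8 below the shNC level (22.6%, beside 23.6% of all genes). STIP1, or HOP, which hands clients from HSP70 to HSP90, was the only one at an adjusted p under 0.05. It had 99.2, 85.96 and 85.7 FPKM in the shNC samples and 65.4, 66.6 and 67.3 FPKM in the shPQBP1 samples, a mean 26.4% lower (log2 fold change -0.44, SE 0.08, adjusted p = 0.0482). Every shPQBP1 value lay below every shNC value, and the adjusted p was 0.0111 to 0.240 over the alternatives. It was 0.0250 without shNC 1, and between 0.0916 and 0.181 without any 1 of the other 5 samples, so that the call was lost. In these 5 fits only 30 to 93 genes of the whole table were called. Over all 6 fits the log2 fold change of STIP1 was -0.47 to -0.37.

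Of the other HSP90 helpers, FKBP5, a peptidyl-prolyl isomerase of steroid receptor complexes, had 3.39, 4 and 3.99 FPKM in the shNC samples and 4.54, 4.58 and 4.56 FPKM in the shPQBP1 samples (log2 fold change 0.26, SE 0.10, adjusted p = 0.176). Among the HSP70 helpers, BAG6, which guards membrane proteins on their way to the ER, had 38.8, 36.99 and 30.78 FPKM in the shNC samples and 26.5, 27.6 and 26.6 FPKM in the shPQBP1 samples (log2 fold change -0.39, SE 0.10, adjusted p = 0.0996). BAG3, a stress-inducible nucleotide exchange factor, had 39.4, 35.01 and 35.3 FPKM in the shNC samples and 29.4, 30.64 and 31.02 FPKM in the shPQBP1 samples (log2 fold change -0.27, SE 0.08, adjusted p = 0.12). FKBP5 lay higher and both BAG genes lower in every shPQBP1 sample. TRAP1, the mitochondrial HSP90, had 19.9, 17.2 and 18 FPKM in the shNC samples and 14.7, 15.3 and 14.1 FPKM in the shPQBP1 samples (log2 fold change -0.32, SE 0.09, adjusted p = 0.107). LONP1, a mitochondrial protease and chaperone, had 11.9, 9.73 and 9.8 FPKM in the shNC samples and 7.31, 7.15 and 7.49 FPKM in the shPQBP1 samples (log2 fold change -0.51, SE 0.10, adjusted p = 0.0588). In both, shNC 1 was the highest sample. Among the partners of the chaperonin, the prefoldin subunit PFDN4 had 21.4, 21.98 and 21.7 FPKM in the shNC samples and 20.29, 16.1 and 18.2 FPKM in the shPQBP1 samples (log2 fold change -0.26, SE 0.10, adjusted p = 0.193). TXNDC9, a regulator of the chaperonin, had 21.6, 26.9 and 28.3 FPKM in the shNC samples and 34.2, 29.6 and 33.5 FPKM in the shPQBP1 samples, shNC 1 being the lowest (log2 fold change 0.35, SE 0.12, adjusted p = 0.167). None of these 7 passed the adjustment. With GC content and length corrected, the log2 fold changes were 0.19 for FKBP5, -0.22 for BAG6, -0.10 for BAG3, -0.14 for TRAP1, -0.30 for LONP1, -0.54 for PFDN4 and 0.12 for TXNDC9, and LONP1 then had an adjusted p of 0.0424.

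HSF1, the master regulator of the heat shock response, had 9.01, 7.62 and 7.95 FPKM in the shNC samples and 7.21, 6.18 and 7.34 FPKM in the shPQBP1 samples. The values did not overlap, and the difference did not pass the test (log2 fold change -0.24, SE 0.11, adjusted p = 0.237). With GC content and length corrected it was -0.01, adjusted p = 0.957. HSF2 had 4.68, 7.05 and 5.98 FPKM in the shNC samples and 7.09, 6.38 and 6.35 FPKM in the shPQBP1 samples, with overlap (log2 fold change 0.18, SE 0.16, adjusted p = 0.503). Of 24 tested genes on a list of HSF1 targets, none lay higher and 6 lay lower at an unadjusted p under 0.05. This 25.0% stands beside 23.6% of all genes in either direction and 11.7% lower, so the total share was near the background. The 6 were HSPA1B, HSP90AB1, CCT2, BAG3, STIP1 and AHSA1, an activator of the HSP90 ATPase that was named after its values were seen. With GC content and length corrected there were 6 lower and 1 higher, HSPB1, beside 27.6% of all genes in either direction. HSPA1B (-0.18) and BAG3 (-0.10) were no longer among the lower ones, and HSPA4L (-0.40) and HSPH1 (-0.19) had joined them. The median log2 fold change of the list was 0.00816 and that of all genes 0.0208. Of the 6 tested members with a heat shock element in the promoter window, only HSP90AB1 had an unadjusted p under 0.05 (16.7%, beside 23.6% of all genes). The median log2 fold change of these 6 was 0.06.

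The 19 members that were not tested had a mean under 1 FPKM. They were HSPA1L, HSPA2, HSPA6, HSPA7, HSPA12A, HSPA12B, HSPB6, HSPB7, HSPB8, HSPB9, DNAJB7, DNAJB13, DNAJC5B, DNAJC12, DNAJC15, DNAJC22, DNAJC27, DNAJC28 and CCT6B. In 11 of them every sample was under 0.2 FPKM, and 7 were listed at 0 in at least 1 sample. The following were named after their values were seen. HSPB8, a small heat shock protein that works with BAG3 in autophagy, had 0.99, 1.15 and 0.65 FPKM in the shNC samples and 0.31, 0.33 and 0.24 FPKM in the shPQBP1 samples. DNAJC22 had 1.4, 0.95 and 0.68 FPKM in the shNC samples and 0.40, 0.36 and 0.42 FPKM in the shPQBP1 samples. In both genes the shPQBP1 samples lay below the shNC samples. With no floor on the mean, the log2 fold changes on the log2(FPKM + 0.1) scale were -1.36 (adjusted p = 0.103) and -1.12 (adjusted p = 0.171). HSPB6 was higher in each shPQBP1 sample, but at no more than 0.15 FPKM. Of the 79 rows, none passed an adjusted p under 0.05 without the floor. An unadjusted p under 0.05 was found in 17 of the 79, beside 13.5% of the 30717 genes of that fit. The sets are unlike. A mean of at least 1 FPKM was reached by 60 of the 79 rows but only 11413 of the 30717 genes.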

How the data were processed

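Per the study's methods, HISAT2 (version 2.2.0) aligned the reads to hg38, SAMtools (version 1.9) sorted them, and StringTie (version 1.3.0) assembled transcripts. The authors used edgeR for their own comparison. Which annotation release they used is not given in the sources used here. The deposited FPKM values are per gene and sample, rounded to 2 decimals and not pooled. The deposited fold change (a ratio), its log2 value and the p-value column hold the authors' own comparison and were not used.

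A floor of 1 on a gene's mean FPKM left 11413 genes. These were compared on log2(FPKM + 0.1) by limma (version 3.58.1, in R version 4.3.3), using lmFit and eBayes with a trend, in a two-sided test. Benjamini-Hochberg adjustment covered all of them. Exact permutation tests (scipy, version 1.17.1, two-sided) were run over the 6 samples. GC content, transcript length and positions came from GENCODE release 44 on hg38. The correction for GC content and length removed natural splines with 5 degrees of freedom each. The fit was tested on simulated data. Depth is unknown, so no counting interval is given.

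The members and lists were chosen with earlier results of these data known. The genes named were PQBP1, members past an adjusted p under 0.05 or past a fold change of 2 with an unadjusted p under 0.05, in each family the 2 most abundant and the 2 with the smallest p, a fixed set of well-known chaperones, and the 2 related genes with the smallest p in each list. Any other gene given with values was named after they were seen.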

Additional observations from a re-analysis of the deposited data

How the results depend on the processing

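The 16 alternatives were set out with earlier results of these data known. The count of chaperone genes at an adjusted p under 0.05, 0 in the reported fit, was 1 with median-of-ratios scaling, quantile normalization or a mean of at least 10 FPKM (DNAJC1 each time), where 362, 417 and 211 genes of the table were called. It was 5 of 938 with GC content and transcript length corrected, 0 of 21 with that correction and the replicate block, and 0 to 2 with single samples left out. The count at an unadjusted p under 0.05, 16, was 7 with a mean of at least 10 FPKM. At that floor only 36 members are tested, and 26.1% of all genes had such a p. With samples left out it was 8 to 19, beside 15.6% to 25.8% of all genes. Without shNC 2 it split into 10 higher and 9 lower, beside 25.8% of all genes in either direction. The count at a fold change over 2 was 2 with no floor on the mean and 0 to 1 with samples left out. The share of all genes at that fold is given above for the reported fit only. The 12 related genes became 7 to 12 with samples left out, beside the same 15.6% to 25.8% of all genes.

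The values gave no sign that the replicate numbers pair the samples, though 3 samples a group cannot exclude it. Deviations of samples with the same number correlated at -0.186, -0.138 and -0.0114, and no sample correlated best with its own number. With the number as a block 7 of the 60 members and 6 of the 53 related genes had an unadjusted p under 0.05, beside 16.1% of all genes. No gene of the table passed the adjustment in the block fit, PQBP1 (adjusted p = 0.0686) and STIP1 (0.240) included. With the block and the GC correction together these counts were 11 and 7, beside 21.2% of all genes.

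Median log2 fold changes moved as follows. With GC content and length corrected, with or without the replicate block, the median was -0.10 for all members, -0.13 for HSP70 and HSP110, 0.10 for the small heat shock proteins, -0.12 for type C J proteins and -0.0704 for the mitochondrial chaperonin. Quantile normalization gave -0.13 for type C and -0.0782 for the cytosolic chaperonin. A mean of at least 10 FPKM gave 0.0549 for type A, -0.10 for type B and -0.18 for type C. With single samples left out the medians ranged from -0.0711 to -0.00351 for all members, -0.13 to 0.13 for HSP70 and HSP110, -0.0845 to 0.13 for type B, -0.13 to -0.0405 for type C and -0.12 to -0.0775 for the cytosolic chaperonin.

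Among the genes taken by the naming rule, the sign turned under the GC correction, with or without the block, in DNAJA1 (-0.12), DNAJA2 (-0.0712), DNAJC3 (-0.11), HSF2 (-0.0122), HSPB1 (0.16), HSPE1 (-0.15) and HSPH1 (-0.19). It also turned in the members HSPA4, HSPA14, DNAJB4, DNAJC21, DNAJC24 and DNAJC30. With single samples left out it turned in DNAJA1 (-0.079 to 0.0816), DNAJB1 (-0.0845 to 0.13), DNAJC3 (-0.0805 to 0.24), HSPB1 (-0.15 to 0.0563), HSPB11 (-0.01997 to 0.13), HSPH1 (-0.16 to 0.17) and HSPA1A (-0.51 to 1.16, negative without shNC 3). The cause of these changes was not tested. Of the values of these genes, 602 kept direction and side of the threshold, 7 passed it, 11 fell short of it and 26 turned. With 3 samples a group and FPKM without read numbers, small differences of low genes are the hardest to see.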
